A study of Mus musculus with 4 samples.

Results

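The genes described here are 9 components of the renin-angiotensin and apelin systems: Ren1, Agt and Ace, which make angiotensin II, the angiotensin receptor genes Agtr1a, Agtr1b, Agtr2 and Mas1, and the apelin gene Apln with its receptor gene Aplnr. They were chosen by name, and each of the 9 matched exactly 1 of the 36814 rows of the deposited table. RNA sequencing was done on 4 hearts taken at postnatal day 14 with the atria cut away. The 2 Hnrnpu mutant mice carried a conditional Hnrnpu allele recombined by Ckmm-Cre, a transgene driven by the muscle creatine kinase promoter, which acts in striated muscle and not in the endothelial or smooth muscle cells of vessels. The 2 wild type control mice were of the same mixed C57BL/6 and 129 S4 background, and each group held 1 male and 1 female. The labels do not say whether the controls carried Cre or floxed alleles. Levels are the authors' group values in RPKM (read number scaled to transcript length and library size), with 1 value per group and no spread between the animals.

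Renin, released by the kidney, cuts angiotensinogen from the liver into angiotensin I, and angiotensin converting enzyme on the endothelial surface turns this into angiotensin II. The AT1 receptors raise blood pressure and drive growth and matrix deposition in the heart, while the AT2 receptor and Mas, which binds shortened angiotensin peptides, are known mostly for opposing actions. Apelin acts on a related receptor that can pair with AT1, widens vessels and strengthens the heartbeat, and both apelin genes are expressed by the endothelium of the coronary vessels.

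Ace was higher in mutant than in control ventricles, while Aplnr and Mas1 were lower, and these were the 3 of 9 members that passed the test. A gene was called where the adjusted p in the authors' deposited table was below 0.05. By that rule 1 member was called higher, against 2.03% of all 24454 tested rows, and 2 members were called lower, against 1.48% of rows. In either direction the authors' deposited table called 3.51% of tested rows, and 5.28% of the 11292 rows with a mean of at least 1 RPKM, a level that 4 of the 9 members reached. Of the 6 members that were not called, 4 had a lower value in mutants and 2 a higher one. The median log2 fold change of the 8 members above 0 in both groups was -0.97, beside -0.03 over all such tested rows in the authors' deposited table. That median was -0.42 with a pseudocount of 0.1 RPKM, -0.15 with a pseudocount of 1 RPKM and -1.45 over the 4 members with a mean of at least 1 RPKM. The members were listed with earlier results in view, so it is a description only.

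**Figure D1:**
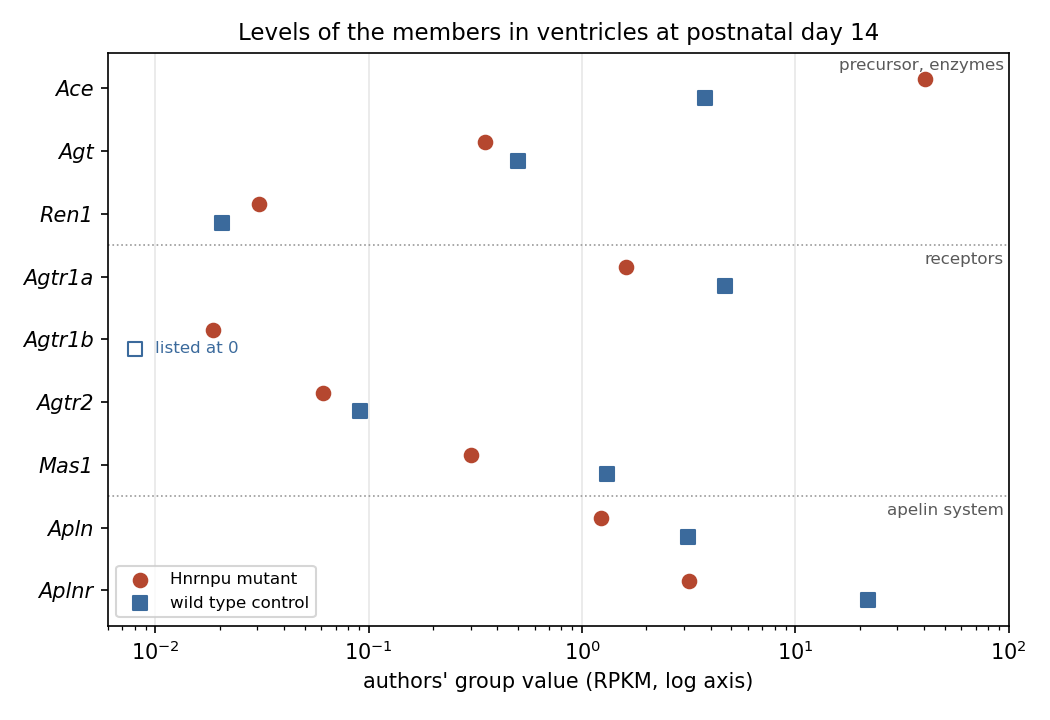
Levels of the 9 members in the 2 groups, 1 row per gene, on a log axis in RPKM, with circles for Hnrnpu mutants and squares for wild type controls (Agtr1b, listed at 0 in controls, has an open square at the left edge). Ace lies at 40.6 RPKM in mutants and 3.75 RPKM in controls, and Aplnr at 3.16 RPKM in mutants and 21.9 RPKM in controls.

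The sequences around the start sites of the called members are shown first, since these windows belong to the genes whose levels differed. A table made from RefSeq (build GRCm38.p6) held windows of 250 bases before to 50 bases after the start for 7 of the 9 members. Aplnr and Agtr1a had no entry. Ace had 2 start sites: the upstream site gives the somatic enzyme of endothelium, and the internal site gives the shorter enzyme of male germ cells. The authors' deposited table gives a single Ace row, so use of the start sites was not measured. The upstream Ace window is chr11:105967698-105967997, plus strand, the internal Ace window is chr11:105974939-105975238, plus strand, and the Mas1 window is chr17:12868094-12868393, minus strand. Each is written 5′ to 3′, with capitals for any match to 4 motifs searched on both strands.
Ace upstream: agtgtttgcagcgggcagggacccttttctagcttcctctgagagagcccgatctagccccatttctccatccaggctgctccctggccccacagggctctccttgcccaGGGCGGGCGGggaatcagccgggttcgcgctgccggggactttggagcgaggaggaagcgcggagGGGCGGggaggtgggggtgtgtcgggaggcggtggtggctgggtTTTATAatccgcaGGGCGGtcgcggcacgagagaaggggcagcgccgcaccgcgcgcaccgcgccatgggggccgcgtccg
Ace internal: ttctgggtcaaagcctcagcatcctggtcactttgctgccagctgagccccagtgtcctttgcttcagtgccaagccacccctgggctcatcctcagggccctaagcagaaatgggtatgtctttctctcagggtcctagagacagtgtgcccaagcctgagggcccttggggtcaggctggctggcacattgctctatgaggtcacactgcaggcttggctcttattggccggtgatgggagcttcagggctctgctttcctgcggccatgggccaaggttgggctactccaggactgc
Mas1: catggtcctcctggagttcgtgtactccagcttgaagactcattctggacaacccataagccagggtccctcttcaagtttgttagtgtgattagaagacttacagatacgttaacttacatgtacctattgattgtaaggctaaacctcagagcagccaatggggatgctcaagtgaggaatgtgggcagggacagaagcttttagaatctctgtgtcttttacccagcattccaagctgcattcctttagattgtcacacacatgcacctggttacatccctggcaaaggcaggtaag

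The motifs were the TATA box TATAAA, the GC box GGGCGG, the hypoxia response core ACGTG and the ATF4 composite element TGATGNAA. Matches on opposite strands can overlap in CACGTG for the hypoxia core, and neighbouring GC boxes can share bases. The upstream Ace window held 4 matches to the GC box, 2 of which share bases, and 1 TATA box match on the other strand, at position -31 from the start. Its content of G and C was 69.7%, against 59.0% in the internal Ace window and 46.0% in the Mas1 window. Neither the internal Ace window nor the Mas1 window held any of these letters. Among the uncalled members with a window, Agt, Ren1 and Agtr1b also held a TATA box match, at -30, -29 and -31. Apln held a GC box match, and Agtr2 held none of the motifs. Of all 32851 windows of this length in the table, 13.6% held the TATA box, 35.7% the GC box, 19.6% the hypoxia core and 3.97% the ATF4 element. A match is a description of letters and not evidence of binding.

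Of the genes that make angiotensin II, only Ace passed the test. Ace, on the plus strand of chromosome 11 from 105829259 to 105851278 (mm9, as for all gene positions below), was listed at 40.6 RPKM in mutants and 3.75 RPKM in controls. Mutant ventricles thus stood far above controls, and Ace was the highest of the 9 members in mutants but came after Aplnr and Agtr1a in controls. The authors' deposited table gives a 10.85-fold difference, 3.44 on the log2 scale (95% interval from 2.27 to 4.61), with p = 9.17e-09 and adjusted p = 2.44e-06. The interval is one implied by the deposited fold and p under a normal approximation. Among the 939 rows with a mean RPKM at least that of Ace and values above 0 in both groups, Ace had the 18th largest rise in the authors' deposited table.

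Agt, which codes for angiotensinogen (minus strand of chromosome 8, from 127080434 to 127093606), was listed at 0.349 RPKM in mutants and 0.501 RPKM in controls. Both values were low, and the authors' deposited table gives p = 0.526 and adjusted p = 0.9999, with an interval from -2.13 to 1.09 on the log2 scale. Ren1, the renin gene (plus strand of chromosome 1, from 135247087 to 135256902), was listed at 0.0306 RPKM in mutants and 0.0206 RPKM in controls, with p = 1 in the authors' deposited table. By the depth estimate given further on, those Ren1 values amount to about 7 reads in mutants and 2 reads in controls, so a difference was not detectable at this depth. Mice of 129 strains are known to carry an additional renin gene, Ren2, absent from C57BL/6 and thus from the reference genome, so reads of it would fall on Ren1.

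Among the receptors, Mas1 fell, and none of the angiotensin receptor genes proper passed the test. Agtr1a, the main AT1 receptor gene of the rodent heart (plus strand of chromosome 13, from 30428310 to 30474736), was listed at 1.60 RPKM in mutants and 4.68 RPKM in controls. Its entry in the authors' deposited table is -1.54 on the log2 scale, with p = 0.0052 and adjusted p = 0.104, outside the threshold. Its interval, from -2.62 to -0.46, did not include 0, and it stayed uncalled with the adjusted p at 0.0721 when only rows with a mean of at least 1 RPKM entered the adjustment.

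Agtr1b, the second AT1 receptor gene of rodents (minus strand of chromosome 3, from 20213395 to 20266099), was listed at 0.0186 RPKM in mutants and at 0 in controls. The authors' deposited table gives p = 0.407 and adjusted p = 0.938, and the mutant value amounts to about 5 reads. The coding sequences of Agtr1a and Agtr1b are both 1077 bases long in the GENCODE M21 annotation (GRCm38), and they differ at 99 bases, an identity of 90.8%. Of all 36-base windows of the Agtr1b coding sequence, 7.01% also occur in that of Agtr1a. How reads that match both genes were treated is not given in the sources used here, so the few Agtr1b reads are uncertain. The first 60 coding bases are shown because they let both genes be compared directly, with the 7 bases that differ in capitals.
Agtr1a: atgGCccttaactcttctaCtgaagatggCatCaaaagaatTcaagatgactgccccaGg
Agtr1b: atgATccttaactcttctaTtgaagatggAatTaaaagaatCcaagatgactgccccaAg

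Agtr2, the AT2 receptor gene, which is known to be high in the fetus and low after birth (plus strand of chromosome X, from 21061670 to 21066290), was listed at 0.0611 RPKM in mutants and 0.0912 RPKM in controls. The authors' deposited table gives p = 0.645 and an adjusted p of 1, and the interval from -3.03 to 1.88 on the log2 scale is the widest of the members that have one. Agtr1a exceeded Agtr2 26.2 times in mutants and 51.3 times in controls, as ratios of RPKM levels.

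Mas1, the receptor gene for shortened angiotensin peptides (minus strand of chromosome 17, from 13033945 to 13061009), was listed at 0.303 RPKM in mutants and 1.31 RPKM in controls. In the authors' deposited table Mas1 has a fold change of -2.11 on the log2 scale, with an interval from -3.41 to -0.81, p = 0.00147 and adjusted p = 0.0440. Of the 859 called rows of the authors' deposited table, 816 had an adjusted p no higher than that of Mas1, so its call lay close to the threshold. In the order of levels Mas1 stood below Agt in mutants and above it in controls.

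Both apelin system genes had lower values in mutants, and the receptor gene passed the test. Aplnr, the apelin receptor gene (plus strand of chromosome 2, from 84976517 to 84980079), was listed at 3.16 RPKM in mutants and 21.9 RPKM in controls. It was the highest of the 9 members in controls and came after Ace in mutants. In the authors' deposited table Aplnr has a fold change of -2.79 on the log2 scale, with an interval from -3.86 to -1.72, p = 3.58e-07 and adjusted p = 5.55e-05. Among the 1812 rows at least as abundant on average and above 0 in both groups, Aplnr had the 4th largest fall in the authors' deposited table.

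Apln, the apelin gene (minus strand of chromosome X, from 45378323 to 45388030), was listed at 1.22 RPKM in mutants and 3.13 RPKM in controls. With a log2 fold change of -1.36, p = 0.0191 and adjusted p = 0.232 in the authors' deposited table, Apln did not pass the test, and its interval ran from -2.50 to -0.22. The receptor transcript exceeded the ligand transcript 2.59 times in mutants and 6.997 times in controls, as ratios of RPKM levels. The other ligand of this receptor is Apela, whose older symbol Gm10664 is used in the table. It was listed at 0.0273 RPKM in mutants and 0.0163 RPKM in controls, with p = 1 in the authors' deposited table.

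**Figure D2:**
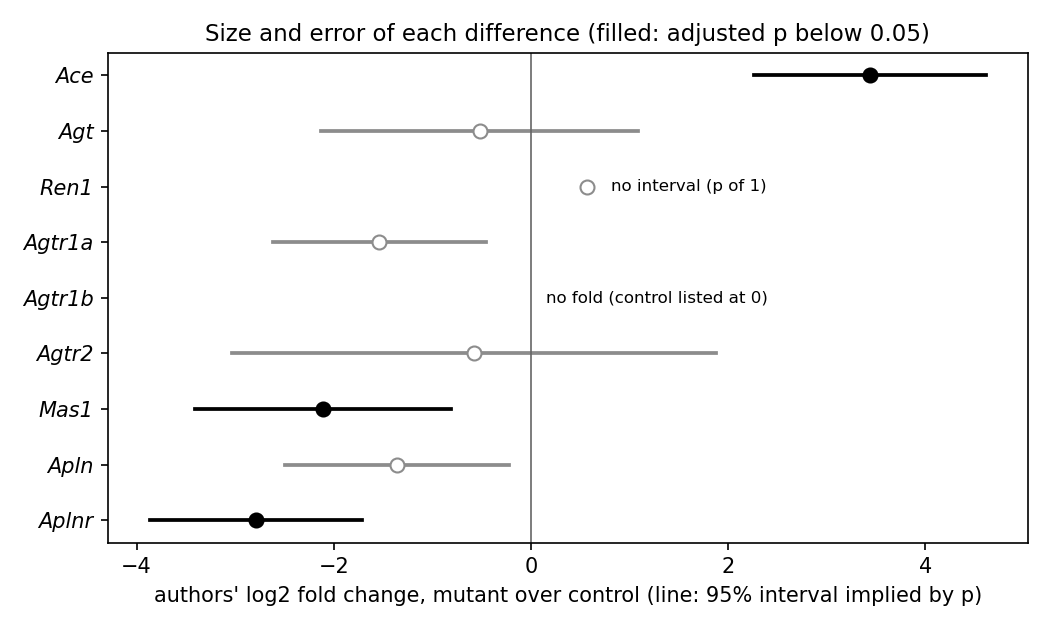
The authors' log2 fold change of each member, mutant over control, with the 95% interval implied by the deposited p as a line. Filled points (Ace, Mas1 and Aplnr) have an adjusted p below 0.05, and the intervals of Agtr1a and Apln lie below 0 without a call. Ren1 has no interval because its p is 1, and Agtr1b has no fold because controls were listed at 0.

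In controls the levels ran, from high to low, Aplnr, Agtr1a, Ace, Apln, Mas1, Agt, Agtr2, Ren1 and Agtr1b. In mutants the order was Ace, Aplnr, Agtr1a, Apln, Agt, Mas1, Agtr2, Ren1 and Agtr1b. Without values per animal, which neighbours in these orders differ beyond their spread could not be tested. The ratio of Ace to Aplnr levels was 12.8 in mutants and 0.171 in controls. Set against all tested rows, Ace stood above 97.9% of rows in mutants and 76.3% in controls, whereas Aplnr stood above 72.7% in mutants and 96.7% in controls.

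**Figure D3:**
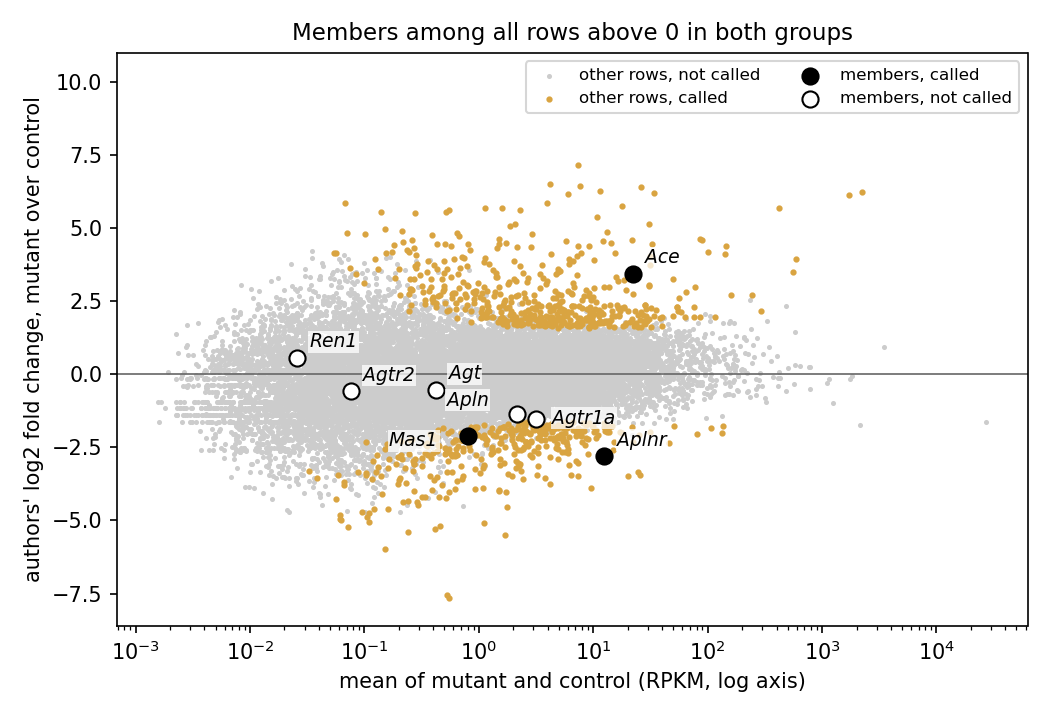
Mean RPKM of both groups (log axis) against the authors' log2 fold change, mutant over control, for every row above 0 in both groups. Members are large circles, filled where called, and other called rows are coloured. Ace lies high on the right at 3.44, Aplnr low on the right at -2.79, and Ren1, Agtr2 and Agt lie among rows of low level with no call.

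The reads behind each value were estimated from the steps in which the RPKM of short single-exon RNA genes rises, multiplied by the exonic length of the members in GENCODE M21. By this estimate Ace rested on about 28000 reads in mutants and 1100 reads in controls, and Aplnr on about 1500 reads in mutants and 4400 reads in controls. Mas1 rested on about 100 reads in mutants and 190 reads in controls, Agtr1a on 590 in mutants and 710 in controls, and Apln on 510 in mutants and 530 in controls. Agt had about 87 reads in mutants and 51 in controls, and Agtr2 about 27 in mutants and 16 in controls. The same steps put the summed depth of the mutant libraries at 2.44 times that of the control libraries. No source used here gives the transcript lengths behind the deposited RPKM, so these are orders of size.

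The members Ace and Mas1 overlap another gene on the opposite strand, and whether reads were counted by strand is not given in the sources used here. Gm11651, a noncoding gene of chromosome 11 read from the minus strand (105826922 to 105847008), overlaps 80.6% of the Ace span. It was listed at 12.5 RPKM in mutants and 0.845 RPKM in controls, a 14.75-fold difference with adjusted p = 6.53e-09 in the authors' deposited table. Both rows were therefore higher in mutants, and without strand the reads of Ace and Gm11651 cannot be told apart where they overlap. In GENCODE M21, 295 of the 1526 exonic bases of Gm11651 (19.3%) lie in exons of Ace, whose own exons cover 5287 bases. Ace exceeded Gm11651 3.25 times in mutants and 4.44 times in controls, as ratios of RPKM levels. By the depth estimate above, Gm11651 rested on about 2500 reads in mutants and 70 reads in controls. Those of Ace were about 28000 in mutants and 1100 in controls. Neither the part of Gm11651 reads in the Ace value nor the part of Ace reads in the Gm11651 value was tested. The Gm11651 difference is thus not a measure separate from that of Ace.

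Airn, a long noncoding gene known for silencing its imprinted neighbours, lies on the plus strand of chromosome 17 from 12934177 to 13052988 and overlaps 70.4% of the Mas1 span. Airn was listed at 2.29 RPKM in mutants and 3.42 RPKM in controls, with p = 0.258 and adjusted p = 0.795 in the authors' deposited table. Its level was above that of Mas1 in both groups, and no base of its annotated exons lies in an exon of Mas1 in GENCODE M21. The span of Airn nevertheless covers much of the Mas1 span, and how many Mas1 exons lie within it was not counted. The part of unspliced Airn RNA in the Mas1 value was not tested. Leaving out both overlapped members, 1 of 7 members was called, Aplnr, which overlaps no other row.

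**Figure D4:**
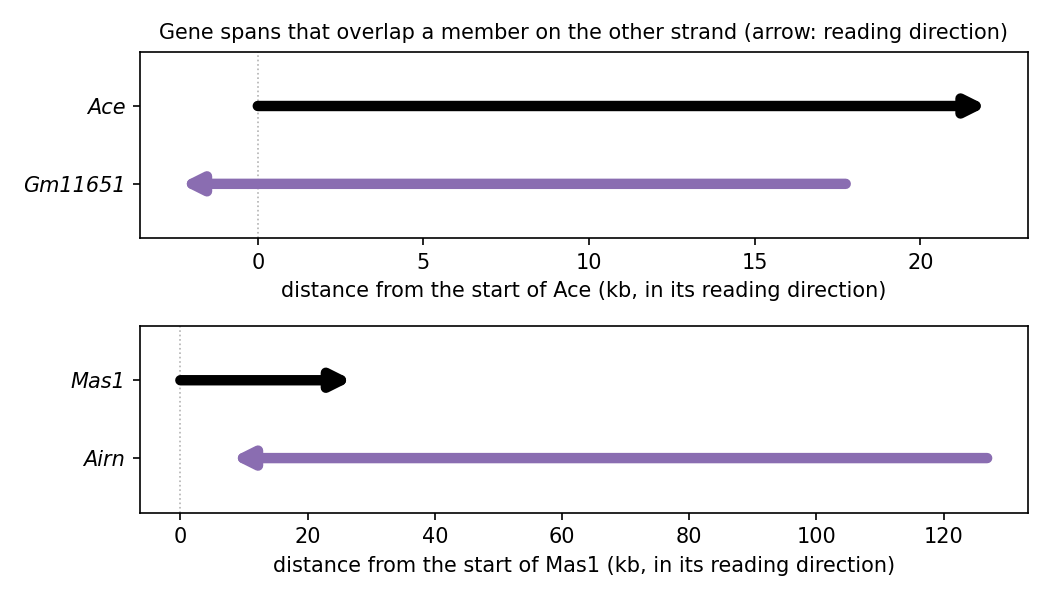
Spans of Ace with Gm11651 and of Mas1 with Airn, in kb from the start of Ace or Mas1 along its reading direction, from the positions in the deposited table (mm9). Arrows point in the reading direction of each gene. Gm11651 covers Ace from its start to 17.7 kb. Airn is read from 127 kb towards the start of Mas1 and ends inside Mas1 at 8.02 kb.

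The rest of both pathways was described with gene lists. No member of the list of genes of angiotensin peptide processing passed the test, 0 of 17. Over all tested rows the called share was 3.51%, and over rows with a mean of at least 1 RPKM it was 5.28%. The list had 11 values above control and 3 unadjusted p-values under 0.05 in the authors' deposited table. Its most abundant member was Ctsd, the lysosomal protease cathepsin D, at 244 RPKM in mutants and 69.2 RPKM in controls (adjusted p = 0.184 in the authors' deposited table). Mme is named as well, after its value was seen. Mme, which codes for neprilysin, a peptidase that breaks down angiotensins and natriuretic peptides, was listed at 0.269 RPKM in mutants and 0.833 RPKM in controls, with p = 0.0175 and adjusted p = 0.221 in the authors' deposited table. On the log2 scale the median difference was 0.29 over the 15 genes of this list above 0 in both groups.

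Among receptor partners and the kinin and aldosterone arms, 1 of 9 tested genes fell and 3 were listed at 0 in both groups, which included the aldosterone and corticosterone synthase genes Cyp11b2 and Cyp11b1. The 1 call was 11.1% of the tested genes of this list, beside 3.51% of all tested rows. The gene that fell was Nr3c2, the mineralocorticoid receptor through which aldosterone acts, at 0.223 RPKM in mutants and 1.05 RPKM in controls. In the authors' deposited table its difference is -2.23 on the log2 scale, with adjusted p = 0.0101. Mtus1, a partner of the AT2 receptor and the most abundant of the others, was listed at 6.34 RPKM in mutants and 8.92 RPKM in controls without a call.

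Of 39 genes that signal downstream of the AT1 receptor, 1 rose and 1 fell. The called share of this list was 5.13%, near the 5.28% of rows with a mean of at least 1 RPKM. Nox4, an NADPH oxidase that makes hydrogen peroxide, rose to 1.39 RPKM in mutants, against 0.308 RPKM in controls (adjusted p = 0.00577 in the authors' deposited table). Rgs2, which shuts off the G protein that AT1 uses, fell to 2.67 RPKM in mutants, against 11.5 RPKM in controls (adjusted p = 0.00380 in the authors' deposited table). Rgs5, a related regulator of vessel walls and the most abundant uncalled member, was listed at 57.9 RPKM in mutants and 76.6 RPKM in controls. The list's median was 0.08, equal to the 0.08 of all rows with a mean of at least 1 RPKM. Grk5, a kinase that switches off such receptors, lay just outside the threshold at 7.04 RPKM in mutants and 2.32 RPKM in controls (adjusted p = 0.0504 in the authors' deposited table) and is named after its value was seen.

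Of 20 genes known from other work to respond to angiotensin II, 10 rose, none fell, and the median log2 fold change was 2.10. Many of them answer to other stimuli too, and several were known to be higher in these mutants when the list was made, so the count is not independent evidence of its direction. The 6 most abundant that rose were Nppa and Nppb, the natriuretic peptide genes, Ctgf and Cyr61, matricellular growth factor genes, Lox, which crosslinks collagen, and Timp1, an inhibitor of matrix proteases. Ctgf was listed at 269 RPKM in mutants and 15.5 RPKM in controls, Lox at 58.3 RPKM in mutants and 4.36 RPKM in controls, and Cyr61 at 47.1 RPKM in mutants and 9.17 RPKM in controls. Nppa reached 4370 RPKM in mutants, against 58.2 RPKM in controls, Nppb 1120 RPKM in mutants, against 72.4 RPKM in controls, and Timp1 11.1 RPKM in mutants, against 2.71 RPKM in controls. Col3a1, a fibrillar collagen, was the most abundant uncalled gene of this list, at 185 RPKM in mutants and 146 RPKM in controls.

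Of 19 genes of apelin receptor signalling none was called in the authors' deposited table, where 2 were below 0.05 before adjustment. Gnai2, an inhibitory G protein subunit and the most abundant of them, was listed at 91.1 RPKM in mutants and 64.0 RPKM in controls. Among 15 genes of sprouting, venous and arterial endothelium, 1 fell: Nrp2, a coreceptor for vascular growth factors, at 1.18 RPKM in mutants and 3.73 RPKM in controls (adjusted p = 0.0436 in the authors' deposited table). Nrp1, its relative and the most abundant uncalled gene there, was listed at 20.8 RPKM in mutants and 39.6 RPKM in controls. The medians of these lists were 0.16 each. In the list of sprouting, venous and arterial endothelium the called share was 6.67%, beside 5.28% of rows with a mean of at least 1 RPKM.

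Of 16 genes of other vasoactive peptide systems, 2 rose and none fell. Both code for endothelins: Edn1 was listed at 9.82 RPKM in mutants and 2.26 RPKM in controls, and Edn3 at 0.756 RPKM in mutants and 0.0278 RPKM in controls. The authors' deposited table gives adjusted p = 0.00343 for Edn1 and adjusted p = 7.72e-06 for Edn3. Called genes made up 12.5% of this list, beside 3.51% of all tested rows. Ramp2, a partner of the adrenomedullin receptor, was listed at 15.9 RPKM in mutants and 15.7 RPKM in controls. Over all 7 lists, 12 of 130 distinct tested genes rose and 3 fell, and 5 of the 110 outside the angiotensin II response list were called. Those 5 are 4.55% of the 110, between the 3.51% of all tested rows and the 5.28% of rows with a mean of at least 1 RPKM, a share near the background.

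**Figure D5:**
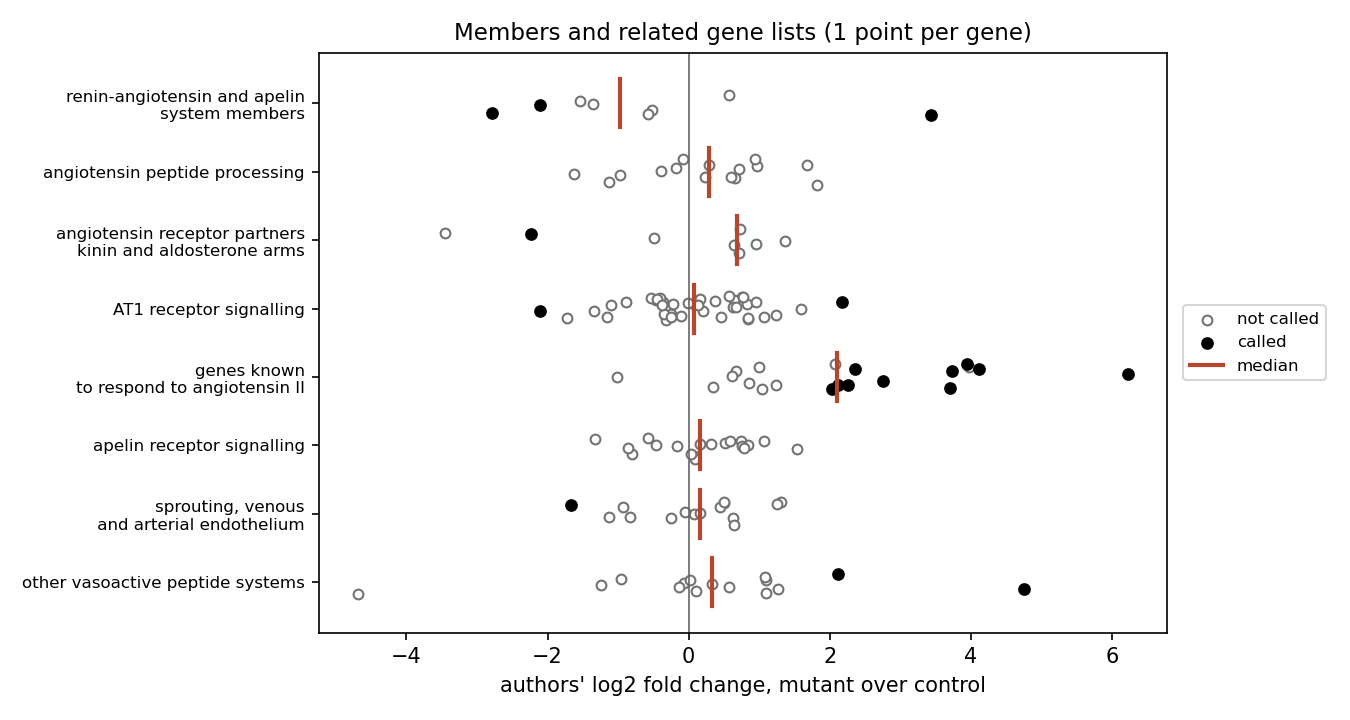
The authors' log2 fold changes, mutant over control, for the members and for each related list, 1 point per gene with values above 0 in both groups. Filled points were called and vertical bars are medians. The median of the 9 members' row, over the 8 with a fold, lies at -0.97, that of the angiotensin II response list at 2.10, and the other lists lie between 0.08 and 0.68.

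Because whole ventricles were sequenced, fewer cells of a type and less RNA per cell cannot be told apart. Endothelial cells are known to carry Ace, Apln and Aplnr, but which cells carried them in these ventricles was not measured. Of general endothelial markers, 0 of 12 were called, and their RPKM summed to 259 in mutants and 255 in controls. In this list 8 of the 12 were below control, no marker was at 0 and 1 gene was below 0.05 before adjustment. Without Eng, the marker with the widest gap, the endothelial sums were 198 RPKM in mutants and 215 RPKM in controls. Of 5 endocardial markers, 3 were called, Npr3, Plvap and Vwf, all higher in mutants. The endocardial sum was 25.3 RPKM in mutants and 10.2 RPKM in controls. Cytl1 went the other way without a call, at 1.79 RPKM in mutants and 3.78 RPKM in controls. Nfatc1 was also not called, at 2.27 RPKM in mutants and 1.47 RPKM in controls. Markers of mural cells, which are known to carry AT1 receptors, had 1 call of 10, Tagln, higher in mutants. They summed to 954 RPKM in mutants and 308 RPKM in controls. Nearly all of that gap was Acta2, smooth muscle actin, which was not called at 802 RPKM in mutants and 158 RPKM in controls. The other 9 mural markers summed to 152 RPKM in mutants and 150 RPKM in controls, and 4 of the 10 were below control. Fibroblast markers had 0 calls of 10 and sums of 761 RPKM in mutants and 612 RPKM in controls. Unadjusted p-values under 0.05 in the authors' deposited table belonged to Pdgfra, Tcf21, Mfap5 and Pi16, all higher in mutants, while 4 of the 10 were below control. Without Col1a1, the other 9 fibroblast markers summed to 543 RPKM in mutants and 502 RPKM in controls. Macrophages can carry Ace as well; their markers had 1 call of 10, Lgals3, higher in mutants, all 10 above control, and sums of 136 RPKM in mutants and 58.8 RPKM in controls. The part of these cell types in the results was not tested.

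Markers of cells that could bring in angiotensinogen or chymase were examined as well. Of 7 hepatocyte markers Ahsg alone was called, at 14.0 RPKM in mutants and 0.662 RPKM in controls, while Alb, the albumin gene that defines these cells, was listed at 0.0304 RPKM in mutants and 0.0615 RPKM in controls. The other 6 hepatocyte markers summed to 0.133 RPKM in mutants and 0.181 RPKM in controls. Of 7 adipocyte markers 0 of 5 tested were called and 0 were below 0.05 before adjustment, and almost the whole sum was Cidea, at 10.2 RPKM in mutants and 9.81 RPKM in controls. The other 4 tested adipocyte markers summed to 0.0238 RPKM in mutants and 0.0297 RPKM in controls, and Adipoq was listed at 0.0065 RPKM in mutants and 0.0124 RPKM in controls. Of 7 mast cell markers Kit fell, at 0.424 RPKM in mutants and 1.81 RPKM in controls, and the sums with Kit were 2.39 RPKM in mutants and 3.52 RPKM in controls. The other 6 mast cell markers summed to 1.97 RPKM in mutants and 1.71 RPKM in controls. Cma1, the chymase that can also make angiotensin II, was listed at 0.415 RPKM in mutants and 0.352 RPKM in controls.

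The tissue label was met by 10 cardiomyocyte markers, none called (1 was below 0.05 before adjustment), with 8 of the 10 below control and a sum of 9344 RPKM in mutants and 8931 RPKM in controls. Without Actc1, cardiac actin, at 4530 RPKM in mutants and 2380 RPKM in controls, that sum was 4814 RPKM in mutants and 6551 RPKM in controls. Atrial markers were low, 0 of 5 called and 1 below 0.05 before adjustment, with Myl7 at 17.7 RPKM in mutants and 27.9 RPKM in controls. Lymphatic and erythroid markers gave 0 calls of 4 and of 6, where 0 lymphatic genes and 1 erythroid gene were below 0.05 before adjustment, and Krt19 was the 1 call of 6 epicardial markers, higher in mutants. Hnrnpu itself was listed at 15.2 RPKM in mutants and 32.7 RPKM in controls, with adjusted p = 0.438 in the authors' deposited table, so the check of the genotype labels gave a lower value that did not pass the test.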

How the data were processed

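RNA from ventricles of 4 mice at postnatal day 14 was sequenced by the authors, 2 Hnrnpu mutants and 2 wild type controls. Per the file headers, the deposited table holds RPKM, 1 value per group, with the fold (a ratio, mutant over control) both plain and as log2, and with p-values before and after adjustment. Per the submitters' processing notes, Bowtie 0.12.9, DESeq (no version) and the build mm9 were used, with no step named. Annotation, counting, strand use and the treatment of reads with several matches: not given in the sources used here. The table stands for separate animals only through the authors' own test, so no SD or n accompanies a level.

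Of 36814 rows, 12360 were at 0 in both groups and untested. Since the deposited log2 is not numeric where a group is at 0, a gene at 0 in a group was given no fold here. Among the members, deposited fold and RPKM ratio lay within 0.414% of each other. The 95% interval of a fold was computed from its p, as if normal. Benjamini-Hochberg adjustment was recomputed across all genes kept by each alternative, and the code was tested on simulated data. Alternatives were other sets of rows in the adjustment, a threshold of 0.1, pseudocounts of 0.1 and 1 RPKM, another centring and a filter at 1 RPKM. Approximate reads came from 145 and 100 short RNA genes seen in mutants alone and in controls alone. The step worth of 1 read was 0.00897 and 0.00654 RPKM times kb in the mutant libraries and 0.0171 and 0.0201 in the control libraries, under equal levels in both libraries of a group. Named genes were every called gene of a list (the 6 most abundant beyond 6 calls) and the most abundant uncalled one. Marker sums were repeated without the gene of widest gap between the groups, a choice made after seeing the data. The members and lists were chosen with earlier results of these data known. Python 3.11.15, numpy 2.4.6, pandas 2.3.3 and scipy 1.17.1 were used. The result for 1 gene is not reported here.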

Additional observations from a re-analysis of the deposited data

How the results depend on the processing

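No paired analysis was possible because the table gives 1 value per group, and leaving out each replicate was not run for the same reason. The count of 3 members called was 2 with a mean of at least 1 RPKM required, or with the adjustment over such rows, since Mas1 falls under that level and the count called lower was then 1 in place of 2. Leaving out Ace and Mas1, which overlap another gene (chosen after seeing the data), left 1 call in all, 0 higher and 1 lower. Over protein coding rows alone the 3 calls were those of Ace, Aplnr and Mas1, and at a threshold of 0.1 the count was also 3. The members' median log2 fold change was -0.42 with a pseudocount of 0.1 RPKM and -0.15 with 1 RPKM, which pull low genes towards 0, and -1.45 over the 4 members with a mean of at least 1 RPKM. Centring on the median of all rows at that level, 0.08, gave -1.05 and turned no member's sign. A pseudocount of 1 RPKM gave Mas1 -0.83. The 15 calls over the related lists ranged from 14 to 19. Agtr1b, Ren1 and Agtr2 rest on too few reads for a change of their size to be detected.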
